A study of Homo sapiens with 8 samples.

Results

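The unexposed bronchial epithelial cell was described from the 2 clean air input libraries, S1 and S2, of 8 libraries in the series. BEAS-2B, a widely used cell line from human bronchial epithelium, was immortalized with a hybrid of adenovirus and SV40, so the cells carry the SV40 large T antigen, a viral protein that drives cells into division. The series holds 4 groups of 2 libraries, namely clean air and formaldehyde exposures, each sequenced before (input) and after immunoprecipitation of RNA that carries 8-oxoguanine. Both libraries used here came from cells grown in bronchial epithelial growth medium on collagen-coated inserts. The apical medium was removed, and the cells were exposed for 2 h to clean air in a chamber and then left for 6 h in fresh medium to recover. They are biological replicates of 1 line, so the spread between them includes cultures and library preparation and says nothing of people. The clean air cells were exposed to air in the chamber as the formaldehyde cells were exposed to formaldehyde, and cells kept out of the chamber were not analysed here.

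Total RNA was extracted and depleted of ribosomal RNA, and no poly(A) selection is described. According to the paper, the libraries were made with the NEBNext Small RNA kit. How the kit weights short and long RNAs was not tested, so class shares below are those of these libraries. They are also shares after the depletion, and how much mitochondrial ribosomal RNA it removed was not tested. Such libraries hold the short structural RNAs that do not code for protein beside the messenger RNAs. The structural RNAs include 7SL, the RNA of the signal recognition particle that guides nascent secreted proteins to the endoplasmic reticulum. They also include 7SK, which holds back the elongation kinase of RNA polymerase II, the RNA subunits of RNase P and RNase MRP, and the snRNAs and snoRNAs that splice pre-mRNA and process ribosomal RNA. A normal airway epithelium is built from basal cells, the stem cells of the tissue, and from secretory and ciliated cells that arise from them, whereas a line in submerged growth medium divides and does not build these layers.

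The files gave 45144392 expected counts in S1 and 38367404 in S2. An expected count is the number of reads that RSEM assigned to a transcript, with shared reads split between transcripts. Levels are given as TPM, which is the count divided by the effective length of the transcript and scaled to the same sum in each library, so that levels of different genes can be set side by side. A gene was taken as expressed at 1 TPM or more in both libraries. Of the 58735 genes listed, 10263 were expressed, and 9473 of these were protein-coding genes of the nucleus, which is 46.8% of the 20244 such genes. The rest comprised 325 long noncoding RNA genes, 94 snoRNA genes, 25 snRNA genes, 243 pseudogenes, 13 mitochondrial mRNAs and members of smaller classes. Among the 9473 nuclear mRNA genes, 6485 had a mean level from 1 to 10 TPM, 2694 from 10 to 100 TPM, 277 from 100 to 1000 TPM and 17 above 1000 TPM. At the other end, 5012 nuclear mRNA genes had 3 counts or fewer in each library, which is at or under the level that a count of 0 allows at this depth.

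By TPM, the RNA in these libraries was mostly structural. The class that holds 7SL took 33.8% ± 0.46 of TPM (mean ± SD, n = 2), nuclear mRNA 20.9% ± 0.64, snoRNA 15.7% ± 2.5, snRNA with 7SK 13.0% ± 0.68, and the RNase P and MRP RNAs 4.98% ± 0.37. By reads, the order was different. Nuclear mRNA genes took 71.9% of the expected counts in S1 and 69.9% in S2, mitochondrial rRNA took 12.4% and 13.9%, and the 7SL class took 8.13% and 8.44%. TPM divides by an effective length, the number of places at which a fragment can start, which shrinks faster than the annotated length for short RNAs. With the annotated length in place of the effective length, nuclear mRNA led with 43.0% of TPM and the 7SL class followed with 28.4%. Transcripts under 200 bases held 18.0% of TPM in S1 and 14.8% in S2 but only 0.245% and 0.198% of the reads, so levels of the smallest RNAs rest on few fragments. Since TPM is shared with the structural RNAs, 1 TPM on this scale equals 4.68 TPM in S1 and 4.88 TPM in S2 on a scale that counts nuclear mRNA alone.

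**Figure D1:**
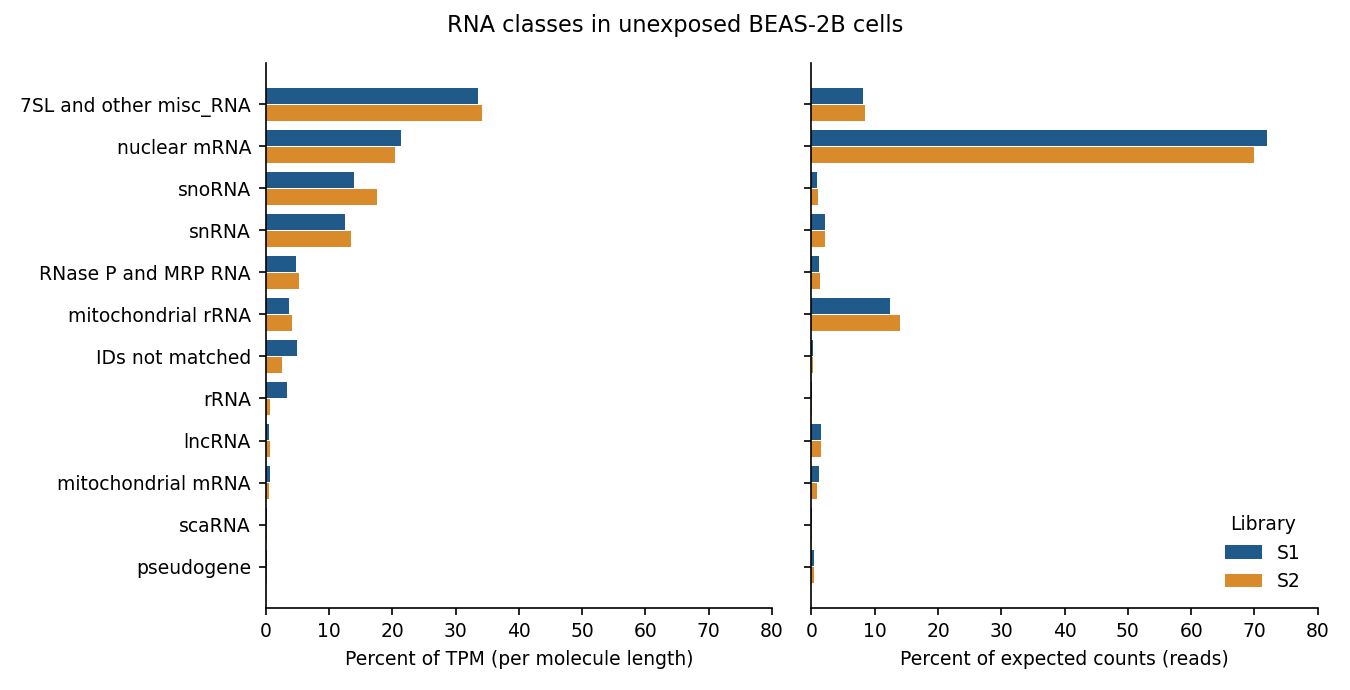
Share of each RNA class in libraries S1 (blue) and S2 (orange), as percent of TPM on the left and as percent of expected counts on the right, both axes linear from 0. The 7SL class leads on the left at 33.5% and 34.2%, whereas nuclear mRNA leads on the right at 71.9% and 69.9%.

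The most abundant genes were the 7SL genes RN7SL1 and RN7SL2. RN7SL1 reached 180268 TPM in S1 and 183718 TPM in S2, and RN7SL2 reached 152793 and 155319 TPM. Together they held 33.3% of TPM in S1 and 33.9% in S2, and 8.08% and 8.37% of the expected counts. They are near-identical copies, so the split of reads between them is uncertain and the sum of the pair is firmer than either value. Another 7SL gene, RN7SL3, was at 1550 and 2035 TPM.

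The other leading RNAs that the annotation names were structural as well. SNORD3A, the U3 snoRNA that acts in the first cuts of the ribosomal RNA precursor, was at 83815 TPM in S1 and 106039 TPM in S2. RN7SK, the gene of 7SK, was at 63562 and 63378 TPM. The mitochondrial large ribosomal RNA MT-RNR2, as measured after depletion of ribosomal RNA, was at 32100 and 34988 TPM. RPPH1, the RNA of RNase P that trims the 5′ end of tRNA, stood at 25499 and 27876 TPM. RMRP, its relative in RNase MRP, stood at 21694 and 24488 TPM under its annotated entry. An entry not matched to the annotation came next, at 9930 and 11995 TPM. Whether it shares reads with a named RNA was not tested. The 10 most abundant genes held 60.1% of TPM in S1 and 62.6% in S2. Among box H/ACA snoRNAs, which guide pseudouridylation, SNORA70 was at 6115 and 7268 TPM and SNORA63 at 5454 and 6566 TPM, but on 1237 and 1127 reads and on 908 and 834 reads. By TPM, all of the 12 most abundant snoRNAs were higher in S2 than in S1, beside 3214 of all 9473 expressed nuclear mRNA genes. The snoRNA class as a whole took 14.0% of TPM in S1 and 17.5% in S2, and 0.800% and 1.00% of the expected counts. The scaRNAs, which guide modification of the spliceosomal RNAs in Cajal bodies, were led by SCARNA2 at 952 and 1136 TPM.

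The 5.8S ribosomal RNA left after depletion differed between the libraries. The 5.8S rRNA gene RNA5-8SN1 was at 13627 TPM in S1 and 2782 TPM in S2, from 7326 and 1190 counts. Counting RNA5-8SN1, 4 gene entries carried identical counts in both libraries, so these copies cannot be told apart. Summed over its annotated genes, the rRNA class took 3.43% of TPM in S1 and 0.729% in S2, which was 0.0408% and 0.00813% of the reads. The 4 expressed genes of the class were 5.8S entries. Further entries with the same counts as these were not matched to the annotation, at 13627 and 2782 TPM or 3500 and 861 TPM each. They lie outside the class, so its share is a lower bound for 5.8S rRNA. The U1 snRNA gene RNU1-1 likewise shared its counts with other entries, 4 in all, at 3657 and 5117 TPM each.

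Among nuclear mRNAs, genes of protein synthesis were the most abundant. EEF1A1, the elongation factor that carries aminoacyl-tRNA to the ribosome, led with 2555 TPM in S1 and 2674 TPM in S2. The glycolytic enzyme GAPDH followed with 1748 and 1322 TPM, and the actin-binding peptide TMSB10 with 1633 and 1429 TPM. Ribosomal proteins came next, among them RPL37A at 1558 and 1494 TPM, RPS23 at 1486 and 1533 TPM, and RPS27 at 1467 and 1473 TPM. Of the 100 most abundant nuclear mRNA genes, 67 encode ribosomal proteins. These 67 held 25.3% of the nuclear mRNA in S1 and 26.1% in S2 (as TPM), and the 100 genes together held 36.8% and 37.6%. All 77 ribosomal protein genes found by name were expressed. Many ribosomal protein genes have near-identical processed pseudogenes, and how the reads were split between them was not tested.

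Outside the ribosomal proteins, the 25 most abundant nuclear mRNAs included NPM1, a nucleolar chaperone, at 1322 and 1380 TPM, PPIA, which encodes cyclophilin A, at 1159 and 1197 TPM, RACK1, a scaffold on the small ribosomal subunit, at 961 and 984 TPM, and the glycolytic enzyme ENO1 at 1024 and 839 TPM. Just below were FTL, the ferritin light chain, at 996 and 803 TPM and S100A2, a calcium-binding protein of basal epithelia, at 902 and 865 TPM. In all, 244 nuclear mRNA genes in S1 and 234 in S2 made up 50% of the nuclear mRNA.

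Messages of the translation machinery are known to begin with a run of pyrimidines, the 5′ terminal oligopyrimidine tract, through which the mTOR pathway governs their translation. The start sites of several leading genes are therefore shown, from 10 bases before the listed start to 20 bases from it on. The sequences are from RefSeq promoters (GRCh38.p14), and capitals mark the longest unbroken run of C and T that comes within 3 bases of the listed start.
EEF1A1, chr6:73521013-73521042, minus strand: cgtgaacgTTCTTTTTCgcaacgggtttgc
RPS23, chr5:82278335-82278364, minus strand: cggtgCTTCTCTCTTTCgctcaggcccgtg
RPL37A, chr2:216498834-216498863, plus strand: gcgTCTCTTCCTTTCTgggctcggacctag
RPS27, chr1:153990752-153990781, plus strand: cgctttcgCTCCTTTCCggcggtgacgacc
NPM1, chr5:171387839-171387868, plus strand: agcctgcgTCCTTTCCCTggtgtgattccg
TMSB10, chr2:84905646-84905675, plus strand: ccgCTCTTTTgtttcttgctgcagcaacgc
FTL, chr19:48965299-48965328, plus strand: acgTCCCCTCgcagttcggcggtcccgcgg
GAPDH, chr12:6535254-6535283, plus strand: gtgcaTCCCTgtccggatgctgcgcctgcg
S100A2, chr1:153565825-153565854, minus strand: tccaggCCCCagagcaggggttgcctcccc
The run measured 9 bases at EEF1A1, 12 at RPS23, 13 at RPL37A, 9 at RPS27 and 10 at NPM1. Of the genes with other roles, TMSB10 and FTL had 7, GAPDH had 5 and S100A2 had 4. The runs of TMSB10, FTL, GAPDH and S100A2 end before the listed start, so they lie outside a message that begins there. Those of EEF1A1, RPS23, RPL37A, RPS27 and NPM1 span it.

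The promoter table matched 81 of the 100 most abundant nuclear mRNA genes and 52 of the 67 ribosomal protein genes. A run of 7 or more pyrimidines within 3 bases of the start, also one that ends before it, was present in 38 of the 52 ribosomal protein genes (73.1%). It was present in 9 of the 29 other genes (31.0%), against 13.0% of all 27305 promoters and 13.8% of those of expressed nuclear mRNA genes. The letters CTTTTC on the gene strand within 10 bases of the start were found in 9 of the 81 (11.1%), against 0.908% of all promoters. The common promoter motifs were searched on both strands of the 300 bases. TATAAA was present in 11.1% of the 81, 11.95% of all and 5.36% of expressed nuclear mRNA genes, CCAAT in 33.3%, 35.7% and 38.7%, and GGGCGG, a GC box, in 63.0% and 44.6%, with 72.6% in expressed nuclear mRNA genes. A match describes the letters only and does not show that a factor binds there.

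The cells had the keratins of a simple and a basal epithelium at once. Of 19 keratin genes, 12 were expressed (63.2%), beside 46.8% of all nuclear mRNA genes, and the median level of the 19 was 11.5 TPM beside 0.789 TPM for all. KRT7 was at 432 TPM in S1 and 462 TPM in S2, KRT18 at 176 and 181, KRT19 at 124 and 157 and KRT8 at 104 and 99.1, and these are the keratins of simple epithelia. Basal and stress keratins stood beside them, with KRT17 at 306 and 392 TPM, KRT5 at 118 and 155 TPM and KRT6A at 97.4 and 113 TPM. KRT14, the usual partner of KRT5, was at 9.48 and 15.0 TPM. KRT13 had 0 and 2 counts and KRT4, like KRT13 a keratin of stratified mucosa, had 0 in both libraries.

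Other basal cell genes were mixed. Of the 12 on the list, which shares KRT5, KRT14 and KRT15 with the keratins, 8 were expressed (66.7%), beside 46.8% of nuclear mRNA genes. The integrin subunits of the hemidesmosome were at 16.6 and 20.8 TPM for ITGB4 and at 13.3 and 12.2 TPM for ITGA6, and TP63, the transcription factor that maintains basal cells, was at 2.73 and 4.58 TPM. The nerve growth factor receptor NGFR lay just under the limit at 0.758 and 0.804 TPM, and DAPL1 had 1 count in each library.

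Epithelial junction genes were present at moderate levels. Of 38 junction and regulator genes, 30 were expressed (78.9%), beside 46.8% of all nuclear mRNA genes. The list median was 4.17 TPM, and no gene of the list reached 100 TPM in both libraries. SPINT2, an inhibitor of membrane serine proteases, was highest at 43.5 and 41.1 TPM. The desmosomal proteins DSP and JUP were at 14.8 and 15.5 TPM and at 13.4 and 11.3 TPM, and PERP was at 20.4 and 19.3 TPM. Of the cadherins, CDH3 (P-cadherin) was at 16 and 17.7 TPM and CDH1 (E-cadherin) at 11.2 and 9.67 TPM, and EPCAM was at 12 and 11.3 TPM. The splicing regulators of the epithelial program were also expressed, ESRP1 at 3.37 and 3.82 TPM and ESRP2 at 2.88 and 2.73 TPM. GRHL2, a transcription factor that sustains CDH1, was at 1.76 and 1.23 TPM. CLDN3 had 7 and 5 counts.

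Mesenchymal genes were expressed along with the epithelial ones. Expressed were 27 of 41 (65.9%), beside 46.8% of all nuclear mRNA genes, and the list median was 3.45 TPM. The intermediate filament VIM was at 229 and 173 TPM, the tropomyosin TPM2 at 138 and 115 TPM, SPARC at 115 and 110.1 TPM and the protease inhibitor TIMP1 at 111 and 109.6 TPM. FN1, fibronectin, was at 61.6 and 62.1 TPM and THBS1 at 46.4 and 55.8 TPM. N-cadherin, CDH2, was at 4.05 and 3.31 TPM, below CDH1 in both libraries. Genes known from fibroblasts were uneven. THY1 was at 12.9 and 16.6 TPM, COL6A1 at 4.63 and 4.94 TPM, COL6A2 at 3.23 and 3.63 TPM and COL5A2 at 1.82 and 2.68 TPM, whereas COL3A1 had 1 count in each library, LUM had 2 and 1, DCN had 3 and 2, and POSTN had 0 in both. The collagen gene COL1A1 was at 1.1 and 1.2 TPM, whereas COL1A2, which encodes the other chain of type I collagen, was at 0.0706 and 0.0517 TPM. Within COL1A1, the long coding isoform COL1A1-201 held only 0.355 and 0.460 TPM. The other isoforms in use were 600 bases or shorter and rested on 17.2 counts or fewer each.

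Transcription factors of the epithelial-mesenchymal transition were low. Of 9, 6 were expressed (66.7%), beside 46.8% of all nuclear mRNA genes. TCF3, a broadly expressed E protein, was at 11.5 and 11.7 TPM, and the others stayed under 2.5 TPM. SNAI2 was at 1.86 and 2.44 TPM, ZEB1 at 1.76 and 1.86 TPM, TWIST1 at 1.66 and 2.23 TPM and SNAI1 at 1.21 and 1.80 TPM. PRRX1 had 0 counts in both libraries. In these bulk data it cannot be told apart whether every cell held a little of both programs or some cells held one and some the other.

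Differentiated airway cells left almost no signal. Of 12 secretory and goblet cell genes, 1 was expressed (8.33%), beside 46.8% of all nuclear mRNA genes. It was WFDC2 at 1.25 and 2.23 TPM. SCGB1A1, the secretoglobin of club cells, had 2 and 0 counts, MUC5AC, the mucin of goblet cells, had 2 in each, and SCGB3A2 and BPIFA1 had 0 in both. For SCGB3A2, the 3 counts that a count of 0 allows would be 0.0549 TPM in S1 and 0.0632 TPM in S2 over its longest transcript, a limit that covers counting error only. None of the 15 ciliated cell genes was expressed, with FOXJ1, the master regulator of motile cilia, at 3 and 7 counts and TEKT1 and DNAI2 at 0. None of the 9 ionocyte and neuroendocrine genes was expressed, with FOXI1 at 1 and 0 counts.

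Transcription factors of the lung lineage were low. None of 9 reached 1 TPM in both libraries, but 2 passed a limit of 0.5 TPM and 4 passed 1 TPM on the scale that counts nuclear mRNA alone, and in S1 alone 1 did. NKX2-1, the factor that specifies lung endoderm, had 0 and 1 counts and SOX2, a factor of the proximal airway, had 1 and 2. FOXA1 was at 1.15 and 0.631 TPM and SOX9 at 0.627 and 0.811 TPM. Thus keratins, junction genes and part of the basal set met the label epithelium, and they do not by themselves name the bronchus. NKX2-1, SOX2, SCGB1A1 and MUC5AC had 2 counts or fewer in each library. Of 11 alveolar genes 1 was expressed (9.09%), beside 46.8% of all nuclear mRNA genes. It was CAV1 at 96.1 and 106 TPM, which many adherent cells also express. The surfactant gene SFTPA1 had 0 counts in both libraries. None of 7 endothelial genes was expressed. Of 9 blood cell genes 2 were expressed (22.2%), beside 46.8% of all nuclear mRNA genes. They were the lysosomal protein CD68 at 2.13 and 1.54 TPM and CD14 at 1.10 and 1.41 TPM. PTPRC, which encodes CD45 of all white cells, had 1 and 2 counts and HBB had 0.

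**Figure D2:**
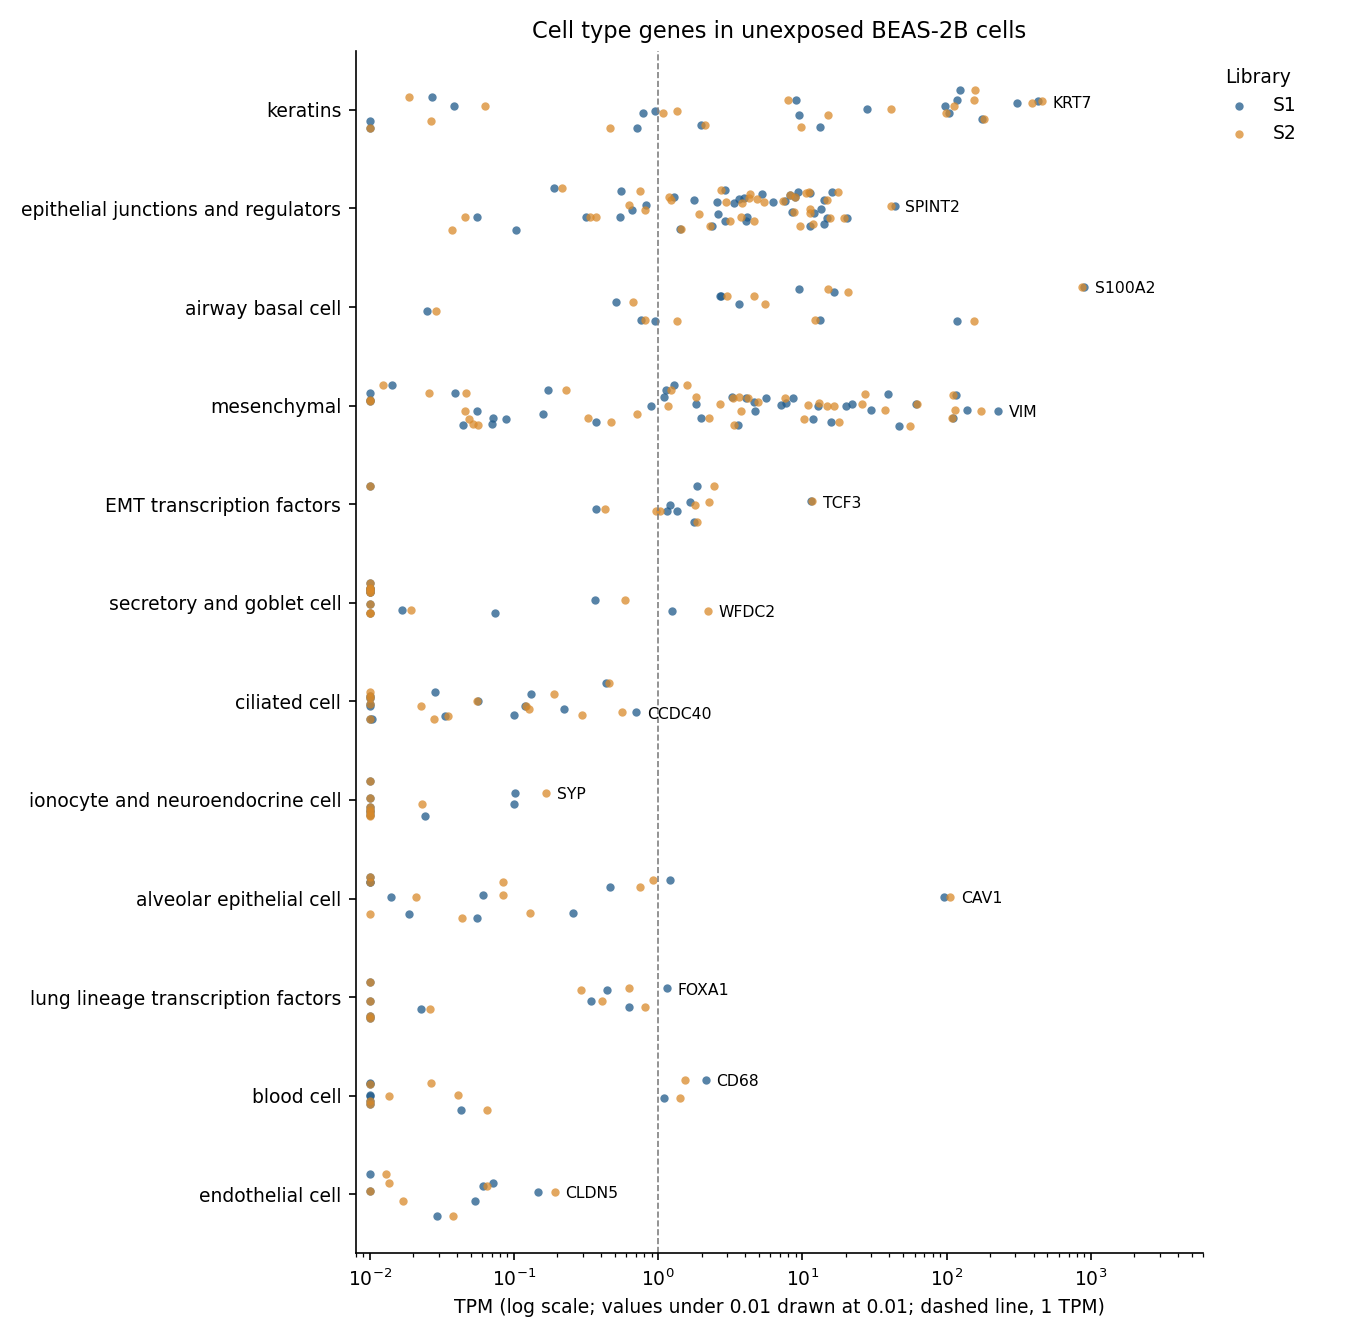
TPM on a log axis of every gene of 12 cell type lists in S1 (blue) and S2 (orange), with the highest gene of each list named. Keratins, junction, basal and mesenchymal genes spread above the dashed line at 1 TPM, whereas secretory, ciliated, ionocyte, neuroendocrine and endothelial genes lie at or below it except WFDC2.

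Genes of dividing cells were expressed throughout. All 23 replication and S phase genes and all 25 G2 and mitosis genes were expressed, beside 46.8% of all nuclear mRNA genes. The list medians were 23.7 and 15.0 TPM. PCNA, the sliding clamp of DNA polymerase, was at 111 and 107 TPM, TK1, thymidine kinase, at 76.1 and 72.3 TPM, and the helicase subunit MCM7 at 53.3 and 58.7 TPM. In mitosis, PTTG1 (securin) was at 100.5 and 90.1 TPM, CCNB1 (cyclin B1) at 96.8 and 89.3 TPM and BIRC5 (survivin) at 49.95 and 43.4 TPM. MKI67, the Ki-67 antigen, was at 11.7 and 11.1 TPM. Of the 25 mitotic genes, 2 were higher in S2 than in S1, beside 3214 of all 9473 expressed nuclear mRNA genes. The median ratio of S2 to S1 was 0.868 for the mitotic genes, beside 0.941 for all expressed nuclear mRNA genes.

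Among cyclins, kinases and inhibitors, 16 of 18 were expressed (88.9%), beside 46.8% of all nuclear mRNA genes, and the highest was an inhibitor. CDKN2A, the locus of p16 and p14ARF, was at 73.3 TPM in S1 and 73.0 TPM in S2. CDK4, which p16 inhibits, was at 41.4 and 43.5 TPM and CCND1, its cyclin partner, at 30.7 and 29.8 TPM. CDKN1A, which encodes the inhibitor p21, was at 26.6 and 24.4 TPM, and RB1 was at 6.94 and 7.68 TPM.

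Redox defence was expressed broadly, with the ferritins and metallothioneins at the top. Of 29 antioxidant enzymes, 25 were expressed (86.2%), beside 46.8% of all nuclear mRNA genes, and the list median was 16.6 TPM. The peroxiredoxin PRDX1, which reduces hydrogen peroxide, was at 246 and 239 TPM, thioredoxin (TXN) at 241 and 223 TPM, and the cytosolic superoxide dismutase SOD1 at 113 and 112 TPM. All 6 peroxiredoxins were at 44.6 TPM or more. The mitochondrial superoxide dismutase SOD2 was at 23.3 and 28.2 TPM, glutathione reductase (GSR) at 16.2 and 15.8 TPM and catalase (CAT) at 8.05 and 8.92 TPM. GPX1 and GPX4, the glutathione peroxidases of the cytosol and of membrane lipids, were at 77.0 and 73.5 TPM and at 58.8 and 62.0 TPM. GPX2, a form of the gut epithelium that NRF2 induces, was at 0.450 and 0.434 TPM, and the secreted dismutase SOD3 had 2 and 4 counts.

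Iron and metal storage stood above the enzymes. FTL was at 996 and 803 TPM and FTH1, the ferritin heavy chain, at 378 and 309 TPM. The metallothioneins, cysteine-rich proteins that bind zinc and copper, were at 618 and 667 TPM for MT2A, 319 and 436 TPM for MT1X and 249 and 339 TPM for MT1E. MT1G had 2 and 3 counts. Metallothionein genes are near-identical copies of each other, so the split among them is uncertain.

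NRF2 is the transcription factor that induces detoxification genes when KEAP1 stops degrading it. Of 26 genes of its pathway, 23 were expressed (88.5%), beside 46.8% of all nuclear mRNA genes, and the list median was 6.50 TPM. NFE2L2, which encodes NRF2, was at 8.62 and 9.12 TPM and its inhibitor KEAP1 at 5.89 and 4.27 TPM. Among its targets, the quinone reductase NQO1 was at 189 and 147 TPM, the pentose phosphate enzyme TKT at 114 and 117 TPM and thioredoxin reductase TXNRD1 at 62.1 and 53 TPM. SRXN1, sulfiredoxin, was at 14.1 and 9.26 TPM. The subunits of glutamate-cysteine ligase, which makes glutathione, were at 10.1 and 8.74 TPM for GCLM and at 5.53 and 4.50 TPM for GCLC. HMOX1, heme oxygenase 1, was at 5.44 and 6.56 TPM and SLC7A11, the cystine importer, at 2.10 and 1.80 TPM. AKR1C1 and AKR1B10, aldo-keto reductases, were at 0.485 and 0.447 TPM and at 0.468 and 1.11 TPM, and the former is close in sequence to AKR1C2 and AKR1C3.

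The letters TGACNNNGC, the core that NRF2 and its MAF partners recognise, were searched on both strands of the RefSeq promoters. They occurred in 5 of the 20 pathway genes that the promoter table matched (25.0%), against 13.6% of all promoters, 15.6% of those of expressed nuclear mRNA genes, 22.2% of those of glycolysis genes and 27.6% of those of the 29 abundant genes outside the ribosomal proteins. Matched genes with the motif include these, with the match in capitals.
ME1, chr6:83431170-83431198, minus strand: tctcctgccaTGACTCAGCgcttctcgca
GCLM, chr1:93909446-93909474, minus strand: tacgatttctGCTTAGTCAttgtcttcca
TXNRD1, chr12:104215670-104215698, plus strand: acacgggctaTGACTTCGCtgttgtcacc
In ME1, the cytosolic malic enzyme at 4.01 and 4.46 TPM, the match begins 137 bases before the listed start. It begins 34 bases before it in GCLM, where it reads on the other strand, and 99 bases before it in TXNRD1. Enhancers farther from the start are outside this window.

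**Figure D3:**
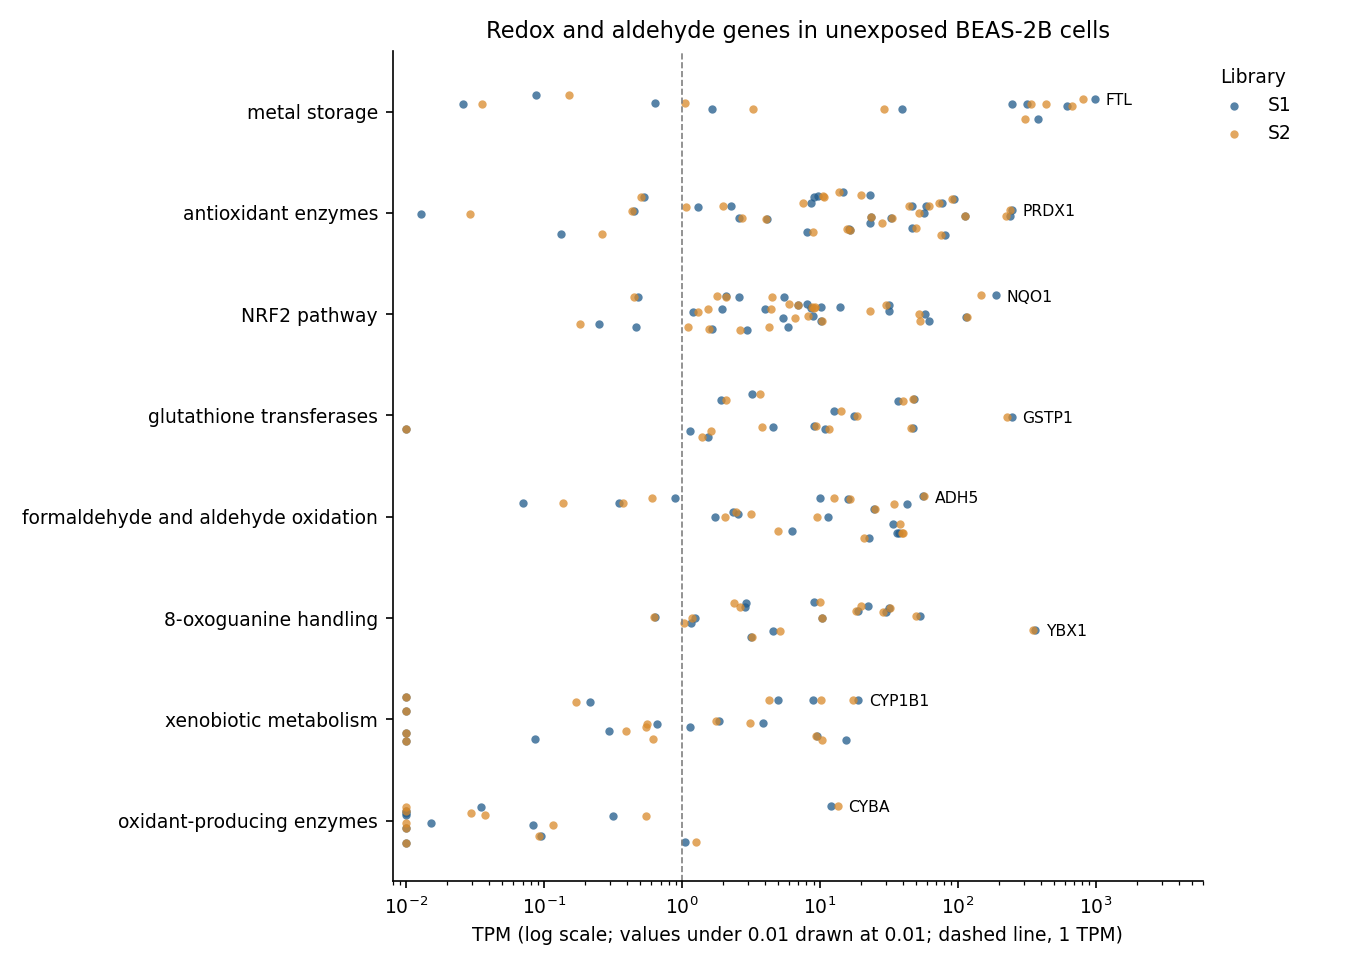
TPM on a log axis of every gene of 8 redox, aldehyde and detoxification lists in S1 (blue) and S2 (orange), with the highest gene of each list named. FTL reaches 996 and 803 TPM, whereas the enzymes that make oxidants lie under the dashed line at 1 TPM except CYBA and XDH.

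Enzymes that conjugate glutathione were led by GSTP1 at 245 and 228 TPM. Expressed were 13 of 14 (92.9%), beside 46.8% of all nuclear mRNA genes. GSTO1 and MGST1 followed at 48.2 and 47.4 TPM and at 47.0 and 46.0 TPM, and GSTA1, abundant in liver, had 0 counts in both libraries. Enzymes that make oxidants were mostly not expressed, with 2 of 12 expressed (16.7%), beside 46.8% of all nuclear mRNA genes. CYBA, the membrane subunit p22phox, was at 12.1 and 13.4 TPM, but its catalytic partners NOX1, NOX4 and CYBB had 3 counts or fewer in each library. The dual oxidases of airway epithelium were at 0.316 and 0.549 TPM for DUOX1 and at 6 counts in each library for DUOX2. NOS2 had 0 counts.

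The enzymes that clear formaldehyde were expressed in clean air. Formaldehyde is oxidised as a glutathione adduct by ADH5, which was at 55.6 TPM in S1 and 56.9 TPM in S2, and the product is split by ESD, which was at 33.6 and 38.2 TPM. Of 17 genes of formaldehyde and aldehyde oxidation, 14 were expressed (82.4%), beside 46.8% of all nuclear mRNA genes. The list median was 11.4 TPM. The one-carbon enzymes SHMT2 and MTHFD2 were at 43.1 and 34.7 TPM and at 37.4 and 39.6 TPM. ALDH1A3 was at 36.0 and 39.8 TPM, whereas ALDH2, the mitochondrial aldehyde dehydrogenase, was at 2.53 and 3.18 TPM, ALDH3A1 at 1.74 and 2.04 TPM and ALDH1A1 at 0.0703 and 0.137 TPM.

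Of 15 genes that recognise or remove 8-oxoguanine, 14 were expressed (93.3%), beside 46.8% of all nuclear mRNA genes. The RNA-binding protein YBX1 was at 364 and 350 TPM and PCBP2 at 52.8 and 49.95 TPM. PNPT1, the polynucleotide phosphorylase that binds oxidised RNA, was at 9.12 and 9.97 TPM. NUDT1 and NUDT5, which remove oxidised guanine nucleotides from the precursor pool, were at 22.2 and 19.8 TPM and at 31.5 and 32.2 TPM. The DNA glycosylases OGG1 and MUTYH were lower, at 3.19 and 3.25 TPM and at 2.86 and 2.63 TPM. Of the xenobiotic enzymes, 7 of 16 were expressed (43.8%), close to the 46.8% of all nuclear mRNA genes. CYP1B1 was at 19.0 and 17.5 TPM and CYP1A1 at 1.14 and 0.547 TPM. CYP2A6 and CYP2A13, forms of liver and airway, had 0 counts.

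All 18 glycolysis genes were expressed, beside 46.8% of all nuclear mRNA genes, with a median of 110.4 TPM beside 0.789 TPM for all. Of the 18, 9 were at 100 TPM or more in both libraries, beside 274 of all 20244 nuclear mRNA genes. After GAPDH and ENO1, TPI1 was at 494 and 409 TPM, PKM at 385 and 330 TPM, ALDOA at 368 and 274 TPM, and the lactate dehydrogenase subunits were at 349 and 256 TPM (LDHA) and 296 and 342 TPM (LDHB). Of the growth factor receptors 8 of 17 were expressed (47.1%), close to the 46.8% of all nuclear mRNA genes. AXL was at 39.0 and 27.1 TPM, MET at 11.2 and 8.97 TPM and EGFR at 6.15 and 7.32 TPM, and KIT had 0 and 1 counts. The 13 mRNAs of the mitochondrial genome were led by the cytochrome oxidase subunits MT-CO3 at 1645 and 1304 TPM and MT-CO1 at 1367 and 1046 TPM. The lowest was MT-ND6 at 55.5 and 38.8 TPM, which is coded on the opposite strand. Reads of a gene and of its antisense partner cannot be told apart in these files, because no strand setting is stated.

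The number of isoforms in use depended on the limit set. Isoforms are transcripts of 1 gene that differ in start, splicing or end, and an isoform counted as in use when it held 10% or more of the TPM of its gene in both libraries. Of 9424 nuclear mRNA genes with at least 1 TPM and 100 counts in both libraries, 6379 used 2 or more (67.7%), and at a limit of 25% of the gene 19.0% did. The number in use was 1 for 3034 genes, 2 for 3498, 3 for 2223, 4 for 588, 5 for 69 and 6 for 1. In 11 genes no isoform reached 10% in both libraries. The median was 2 in use of 8 annotated. The leading isoform held a median of 56.0% of its gene, and in 1378 genes (14.6%) it held 90% or more. It was the same transcript in both libraries for 8504 genes (90.2%), and of the 920 genes where it was not, 881 had a leading share under 50% in at least 1 library.

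**Figure D4:**
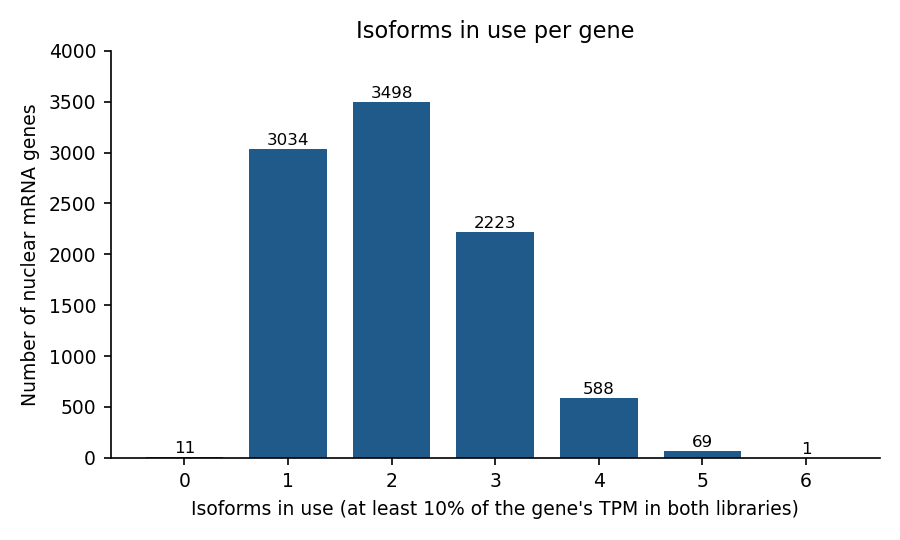
Number of nuclear mRNA genes (bars, linear axis from 0) by the number of isoforms in use, for the 9424 genes with at least 1 TPM and 100 counts in both libraries. The most frequent number was 2, in 3498 genes.

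Not all isoforms in use code for protein. Of 19402 in use, 15175 are annotated as protein coding (78.2%), 1396 as transcripts with a retained intron (7.20%), 1286 as transcripts with no defined coding sequence (6.63%) and 1126 as targets of nonsense-mediated decay (5.80%), the pathway that degrades messages with an early stop codon. Protein-coding isoforms held 84.8% of the TPM of these genes in S1 and 84.96% in S2. A protein-coding isoform led in 8487 of the 9424 genes (90.1%).

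Several of the most abundant genes were mixtures. EEF1A1 used 3 of 11 annotated isoforms, EEF1A1-203 at 51.9% and 51.2% of the gene, EEF1A1-201 at 36.3% and 36.5%, and the retained-intron form EEF1A1-207 at 10.3% and 11%. In GAPDH, the isoforms GAPDH-204 and GAPDH-211 were close, at 35.2% and 36.1% and at 35.7% and 34.7%, and which of them led differed between the libraries. In NPM1, the coding isoform NPM1-204 was at 37.9% and 39.2%, and NPM1-210, a retained-intron form of 268 bases, was at 33.9% and 31.2%. RPL4 used 4 of 17, led by the retained-intron form RPL4-203 at 36.7% and 36.3%. Short forms such as NPM1-210 gain weight from the division by effective length.

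Among the listed genes, NQO1 used 4 of 7 isoforms, led by NQO1-206 at 48.9% and 46.4%, with NQO1-203, the longest of the 4 at 2527 bases, at 11.6% and 12.1%. CDKN2A used 4 of 14, led by CDKN2A-201 at 36.2% and 34.1%. MTHFD2 was led by MTHFD2-205, annotated as a target of nonsense-mediated decay, at 48.4% and 46.6%, and the coding MTHFD2-201 was at 20.5% and 20.6%. SPARC was led by a retained-intron form, SPARC-202, at 43.3% and 42.1%. FN1 was led by FN1-212 at 34.2% and 34.5%, with FN1-211 at 16.1% and 16.7%. SECISBP2, a factor of selenoprotein synthesis, was the 1 gene with 6 isoforms in use, and its leading isoform held 26.5% on average.

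The libraries agreed closely over most genes. On the log2(TPM + 1) scale, 10231 of the 10263 expressed genes (99.7%) lay within 2-fold, as did 9467 of the 9473 nuclear mRNA genes (99.9%). The median absolute difference for nuclear mRNA genes was 0.15 from 1 to 10 TPM, 0.12 from 10 to 100 TPM and 0.08 from 100 to 1000 TPM. With 1 library on each side, a difference between S1 and S2 has no test, and the values below are a description of these cultures. All expressed nuclear mRNA genes had a median ratio of S2 to S1 of 0.941, which is the level against which lists are read.

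Some gene groups differed together between the libraries. All 13 mitochondrial mRNAs were lower in S2, with ratios from 0.70 to 0.847 and a median of 0.787. Glycolysis genes had a median ratio of 0.796, and 16 of 18 were lower in S2. The 2 that were higher were LDHB and PFKM, whereas 3214 of all 9473 expressed nuclear mRNA genes were higher in S2. Cytokines and chemokines lay on the other side. Of the 10 with at least 50 counts in both libraries all were higher in S2, with a median ratio of 2.03. All 11640 nuclear mRNA genes with such counts had a median ratio of 0.946, and 4289 of them were higher in S2. CXCL8, the neutrophil chemokine, was at 1.71 TPM in S1 and 5.53 TPM in S2, CXCL1 at 0.827 and 3.45 TPM, and IL1A at 3.47 and 6.25 TPM. IL6 was at 0.437 and 2.77 TPM, on 44 and 191 counts. Of the airway basal cell genes, 9 of 11 with at least 50 counts were higher in S2, among them TP63, and their median ratio was 1.30. Of the 19 cytokines and chemokines, 6 were at 1 TPM or more in both libraries (31.6%), beside 46.8% of all nuclear mRNA genes. With S2 alone 11 were, and on the scale that counts nuclear mRNA alone 13 were in both libraries.

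**Figure D5:**
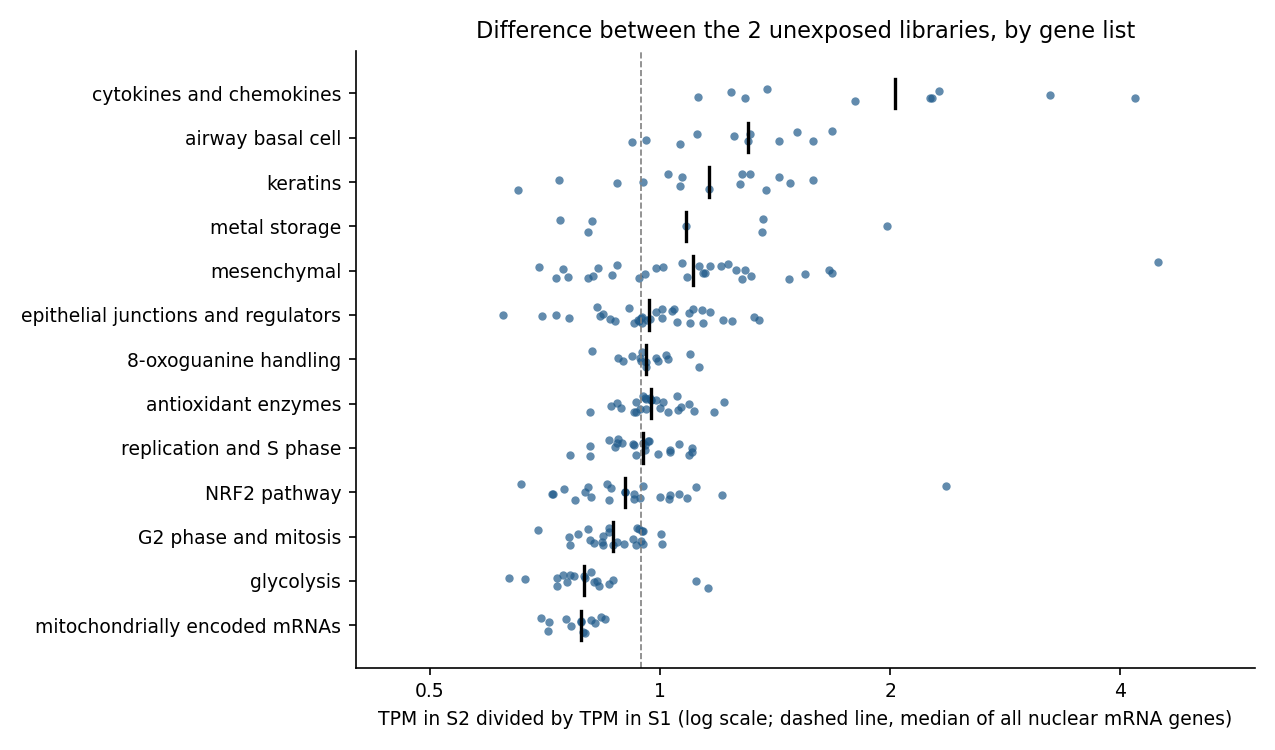
Ratio of TPM in S2 to TPM in S1 on a log axis for the members of 13 gene lists with at least 50 counts in both libraries, with the list median as a black bar and the median of all nuclear mRNA genes (0.946) as a dashed line. Cytokines and chemokines have a median of 2.03, whereas glycolysis and mitochondrially encoded mRNAs have medians of 0.796 and 0.787.

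Among nuclear mRNA genes with at least 100 counts in both libraries, the largest difference on the log2(TPM + 1) scale belonged to SERPINB3, a squamous cell serpin, at 0.632 TPM in S1 and 6.46 TPM in S2. HSPA6, an inducible heat shock protein, was at 0.770 and 4.28 TPM, FASN, the fatty acid synthase, at 12.3 and 28.1 TPM, and NNMT at 30.8 and 68.0 TPM. The calgranulins S100A8 and S100A9, found in inflamed and squamous epithelium, were at 4.65 and 10.2 TPM and at 41.9 and 82.8 TPM. In the other direction, CA9, a carbonic anhydrase known as a target of hypoxia-inducible factor, was at 5.31 TPM in S1 and 1.58 TPM in S2. The lipid droplet protein PLIN2 was at 13.8 and 7.17 TPM, and ANGPTL4 at 9.98 and 5.25 TPM. SLX1B, at 8.52 and 1.40 TPM, has a near-identical copy, SLX1A, so its split of reads is uncertain. Whether these differences reflect the cultures, the exposure runs or the libraries cannot be told apart, since there is 1 library on each side. The paper lists exposures on separate dates, and the sample titles do not tie a library to a date.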

How the data were processed

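RNA of BEAS-2B cells exposed to clean air was made into libraries with the NEBNext Small RNA kit and sequenced in paired ends without immunoprecipitation. According to the study's methods and the submitters' processing notes, reads were trimmed with cutadapt, aligned to GRCh38 with STAR 2.6.0a and quantified against Ensembl transcripts with RSEM 1.2.25, with no strand setting stated. The deposited files give each transcript an expected count, a TPM, a length, an effective length and the percent of its gene. Tables of the authors' DESeq2 fold changes and p-values were not used, nor were the other 6 libraries.

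TPM was recomputed here in Python 3.11.15 (pandas 2.3.3, numpy 2.4.6) from the expected count and effective length, over transcripts with an effective length of at least 1 base, and summed by gene. It differed from the deposited TPM by at most 0.417% in transcripts at 10 TPM or more. Gene symbols and classes came from GENCODE release 44, which matched 58243 of 58735 gene IDs. Of the TPM in the other 492, 99.8% lay in 8 IDs. The class of an RNA is that of its gene. Genes with replaced IDs, such as SOD2, were named through their transcripts.

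Groups came from the sample titles. No comparison was tested, since there are 2 libraries of 1 group and both values are given. Genes named are the 25 most abundant of all classes and of nuclear mRNA, the leading and defining members of 28 lists (by TPM or by 3 counts or fewer), the isoforms of abundant and listed genes, and the largest differences between libraries. The values of RN7SL3, SCARNA2, SECISBP2 and the isoforms of SPARC and FN1 fall outside this rule and were chosen after they were seen. The members and lists were chosen with earlier results of these data known. Some genes and sequences that this rule would name are not reported here. The code was tested on simulated data. Totals of 45144392 and 38367404 counts limit precision for the lowest genes, and limits of 3 counts cover counting error only, since reads carried no molecular identifiers. Alternatives changed the TPM threshold, the length, the total, the depth, the isoform share and the libraries.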

Additional observations from a re-analysis of the deposited data

How the results depend on the processing

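The number of expressed genes was 10263. It was 5162 at 5 TPM and 17234 at a count of at least 10, and for nuclear mRNA genes it was 4864 at 5 TPM in place of 9473, while the other settings stayed within 1.5 times. With either library alone it lay between 10551 and 10714 genes (9662 to 9722 for nuclear mRNA). The shares of RNA depended on the scale. As percent of expected counts, the shares were 70.9% for nuclear mRNA, 8.28% for the 7SL class, 0.900% for snoRNA and 13.2% for mitochondrial rRNA. With annotated lengths they were 43.0%, 28.4%, 4.26% and 9.12%. Without transcripts under 200 bases they were 25.1%, 40.5%, 12.8% and 4.67%, against 20.9%, 33.8%, 15.7% and 3.90% as reported. The share of genes with 2 or more isoforms in use was 82.3% at 5% of the gene, 19.0% at 25%, 66.3% with 1000 counts and 67.6% with 10 counts. It was 74.5% to 74.6% with either library alone, since an isoform then has to pass once. The share of genes within 2-fold was 99.5% with a pseudocount of 0.1. All lists together had 312 expressed genes and 218 to 349 under the alternatives (the 349 over 27 lists), and 14 of 28 list counts moved by over 1.5 times at 5 TPM. No paired analysis was possible because the values come from no test and from 1 group. Levels of the shortest RNAs rest on few reads, which limits their precision.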

Other observations

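Long noncoding RNAs and telomerase were not among the listed groups, and the genes below were chosen after their values were seen. By mean TPM, the long noncoding RNAs were led by unnamed entries on chromosome 21. In S1 and S2 these entries were at 648 and 761 TPM, 475 and 587 TPM, and 432 and 544 TPM. They lie near annotated genes of the rRNA class. They were higher in S2, whereas the rRNA class was lower. Whether they share reads with ribosomal RNA was not tested. MALAT1, a nuclear RNA of splicing speckles, was at 438 TPM in S1 and 428 TPM in S2, and NEAT1, which builds paraspeckles, was at 9.77 and 12.9 TPM. Several of the more abundant long noncoding RNAs are hosts of snoRNAs in their introns. SNHG29 was at 216 and 241 TPM, GAS5 at 139 and 156 TPM, SNHG3 at 143 and 114 TPM, and ZFAS1 at 121 and 128 TPM. TERC, the RNA template of telomerase, was at 12.3 and 18.0 TPM under its own entry. A second entry that overlaps it on the same strand, Telomerase-vert, was at 120.3 and 156.8 TPM, so the reads of this RNA were split between both entries. TERT, the catalytic subunit of telomerase, was at 0.584 and 0.760 TPM on 211 counts in each library. H19, an imprinted RNA, was at 5.91 and 4.92 TPM. SNHG and GAS5 reads and the reads of the snoRNAs inside them are counted as separate genes in these files, and overlap between them was not tested.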
